A study of Homo sapiens with 8 samples.

Results

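The response of MCF10A cells to a stiffer matrix was compared between 2 gel systems, gene by gene, to find genes whose stiffness effect differed in size or in direction between them. The comparison covered 13369 of the 25369 gene symbols in the table, those that reached a normalized count of 10 in 2 or more of the 8 libraries. MCF10A is a spontaneously immortalized, non-malignant human mammary epithelial cell line, and all cells had been held in a 3D hydrogel for 7 days before RNA was taken. Soft IPNs and stiff IPNs are interpenetrating networks of alginate and reconstituted basement membrane (rBM), and the stiff ones were crosslinked with calcium. Soft col:rBM gels held collagen-1 (col-1) at low density with rBM, and stiff col gels held col-1 at high density without rBM. Each gel had 2 libraries, numbered by replicate, which the study describes as independent trials. The gain in stiffness in the collagen gels therefore came with more col-1 and the loss of rBM, and that in the IPNs with added calcium, and these cannot be told apart from stiffness here. The elastic moduli that the study measured were not used. Whether the step from soft to stiff was alike in the 2 systems, and its part in the size of the effects, was not tested.

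Epithelial cells sense the matrix through integrins and the actomyosin skeleton. The basement membrane holds laminins and type IV collagen, while col-1 belongs to the stroma that mammary epithelium meets once that membrane is breached. MCF10A cells have a largely basal character, and basal epithelial cells can enter a squamous program, in which small proline-rich proteins, involucrin, transglutaminases and serine protease inhibitors build the cornified envelope of skin.

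The libraries held between 13065615 and 18583116 reads on genes, with the fewest in stiff IPN replicate 2. All 10 basal mammary markers were above the level of 3 reads in every library. Of the 10 luminal mammary markers 5 were too, among them KRT18 (4014 to 7326 normalized counts) and KRT8 (3023 to 6132). The luminal markers ELF5, KIT and PGR were at or under that level in all 8. Of the markers of other cell types, COL1A2, COL3A1, LUM and THY1 of fibroblasts, CLDN5, TIE1 and VWF of endothelium and PTPRC, CD3E and HBB of blood cells were at or under that level in all 8. Others were above it in all 8, among them DCN (526 to 1217 normalized counts), COL1A1 (168 to 333) and FAP (162 to 914) of the fibroblast list, KDR (22 to 267) of the endothelial list, and CD68 (324 to 5017) and CD14 (89 to 412) of the blood cell list. FAP rose in stiff IPNs by 1.83 (SE 0.27) and CD68 fell, with an effect of -2.24 (SE 0.25), and the part of other cell types in the results was not tested. The 100 most abundant genes took 24.5% and 26.7% of the counts in the stiff IPN libraries and 25.6% to 32.7% in the others. In bulk RNA, fewer cells that express a gene and less of its RNA per cell cannot be told apart. Each effect below is stiff minus soft on the scale log2(normalized count + 1), and the difference is the collagen effect minus the IPN effect, so a negative difference means a higher value of the stiffness effect in IPNs. Values given as a pair are those of replicates 1 and 2, and the soft gel comes before the stiff one.

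The stiffness effect had a median size of 0.29 in IPNs and 0.14 in collagen gels, and 1135 genes (8.49%) had an IPN effect of at least 1 in size against 255 (1.91%) for the collagen effect. With the replicate number as a block, limma called 511 genes for the IPN effect (3.82% of those tested) at a Benjamini-Hochberg adjusted p under 0.05, of which 226 rose (1.69%) and 285 fell (2.13%) in stiff IPNs. With all libraries scaled to the same total the split was 665 higher and 165 lower. In collagen gels limma called 0 genes, with 497 (3.72%) at an unadjusted p under 0.05 against 3300 (24.7%) in IPNs. The study tested pairs of gels with DESeq2 instead. It lists regulators linked to genes that it found differentially expressed between stiff col and soft col:rBM gels. The 0 is thus the count of the limma fit and does not mean that the collagen gels had no response. Without the block limma called 0 genes for either effect. With the block, the IPN count was 0 without soft IPN replicate 2, 240 without soft IPN replicate 1, 2688 when stiff IPN replicate 1 was left out and 1092 when its replicate 2 was.

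The genes that rose or fell in stiff IPNs had small median effects of the same sign in collagen gels. They were chosen by their IPN effect, so only the collagen values are independent. The 226 that rose had a median IPN effect of 1.48 and a median collagen effect of 0.20 (0.17 in replicate 1 and 0.21 in replicate 2), and 156 of them had a collagen effect above 0. The 285 that fell had medians of -0.995 in IPNs and -0.15 in collagen gels, and 229 of them had a collagen effect below 0. Among all genes tested, 49.2% had a collagen effect above 0. The IPN and collagen comparisons share no library. Across genes the effects correlated with r = 0.26, and with 0.09 in replicate 1 and 0.29 in replicate 2, over 13369 genes, which are not independent replicates.

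**Figure D1:**
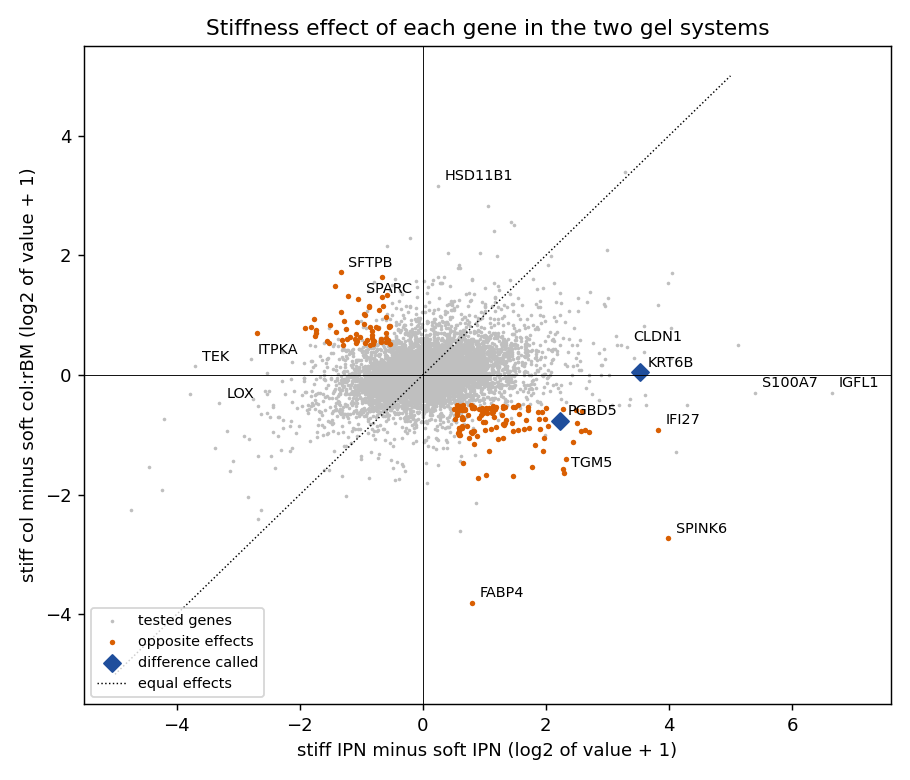
Stiffness effect of each of the 13369 tested genes in IPNs (x axis) and in collagen gels (y axis), both on the log2 scale of the normalized count + 1. Orange points are the 182 genes with opposite effects, blue diamonds are KRT6B and PGBD5, and the dotted line marks equal effects. KRT6B lies at 3.53 on the x axis and 0.05 on the y axis, and SFTPB lies among the orange points at -1.33 and 1.72.

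The difference between the stiffness effects passed the threshold for 2 genes (0.015% of those tested), KRT6B and PGBD5, both with a higher effect in IPNs. At an unadjusted p under 0.05 there were 1321 genes (9.88%), or 278 (2.08%) without the block, and 7768 genes (58.1%) had a difference of the same sign in both replicates. Of the 13369 genes tested, 6834 had a positive and 6535 a negative difference. KRT6B (chr12:52840435-52845930, minus strand, hg19), a type II keratin of stressed and squamous epithelium, had normalized counts of 51 and 307 in the soft and 616 and 3456 in the stiff IPN, 60 and 318 in the soft col:rBM and 52 and 391 in the stiff col gel. Within each replicate the stiff IPN library stood above the other 3 gels, which lay close together. It rose in stiff IPNs by 3.53 (SE 0.19) and had a collagen effect of 0.05 (SE 0.19). The difference was -3.48 (SE 0.27, adjusted p = 0.0106), with -3.77 in replicate 1 and -3.19 in replicate 2.

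KRT6B has near-identical paralogs, and the authors removed reads that mapped to several places, so its count is uncertain. KRT6A, the far more abundant paralog, had 21219 and 36231 in the soft and 19961 and 45308 in the stiff IPN, 19674 and 35808 in the soft col:rBM and 13343 and 28048 in the stiff col gel. Its difference was -0.57 (SE 0.23) at an unadjusted p of 0.0358, and its replicates had IPN effects of opposite sign. KRT6C had between 47 and 100 normalized counts in every library and a difference of -0.10 (SE 0.38).

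PGBD5 (chr1:230450236-230562078, minus strand), which encodes a domesticated transposase of the piggyBac family, had effects of opposite sign. It had 74 and 176 normalized counts in the soft and 333 and 878 in the stiff IPN, but 245 and 548 in the soft col:rBM and 145 and 321 in the stiff col gel. In each replicate its 2 soft gels were also apart, with the higher value in soft col:rBM. PGBD5 rose in stiff IPNs by 2.23 (SE 0.17), while its collagen effect was -0.76 (SE 0.17, adjusted p = 0.673). The difference was -2.99 (SE 0.24, adjusted p = 0.0106), and -2.91 and -3.08 in the replicates.

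Both calls rest on the block and on the soft IPN libraries. Without soft IPN replicate 1 the adjusted p of both genes was 0.102, without soft IPN replicate 2 it was 0.399, and without the block it was 0.999995, while leaving out any single library kept the difference between -3.68 and -3.28 for KRT6B and between -3.10 and -2.89 for PGBD5. The number of genes called for the difference was 675 when stiff IPN replicate 1 was left out and 41 when its replicate 2 was, and both genes were among them. An exact two-sided permutation test of 2 libraries against 2 cannot give a p below 0.333, so single genes were tested by limma's model across all genes and not by permutation.

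**Figure D2:**
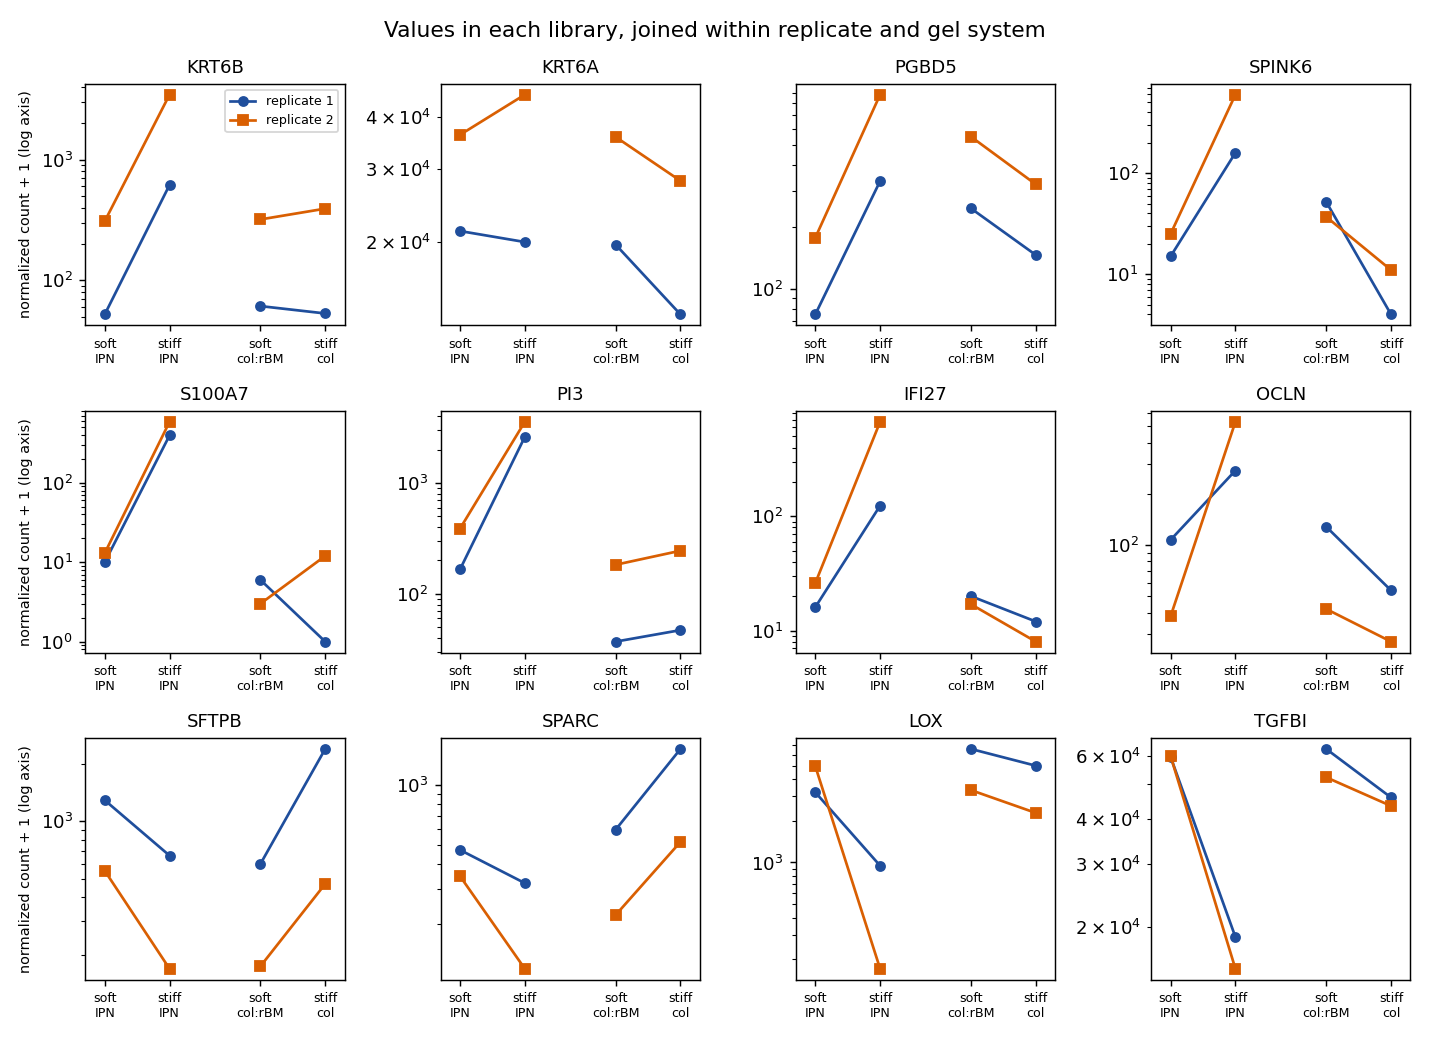
Normalized count + 1 (log axis) of 12 genes in each library, with soft and stiff gels of a system joined within replicate 1 (blue circles) and replicate 2 (orange squares). KRT6B rises steeply in stiff IPNs and stays nearly level in collagen gels, PGBD5, SPINK6, IFI27 and OCLN slope up in IPNs and down in collagen gels in both replicates, and SFTPB and SPARC slope the other way.

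Because only 2 genes were called, genes below are named by rank among the 372 (2.78% of those tested) with an unadjusted p under 0.01 and a difference of the same sign in both replicates, 195 positive (1.46%) and 177 negative (1.32%). Their differences were not called, and they are described by their values. At the edge of this rule DDX50 lay just inside with a difference of 0.64 and ENO2 just outside with 2.25. By size, 260 of the 372 had an effect of at least 0.5 in IPNs and one under 0.5 in collagen gels (3052 or 22.8% of all genes tested). Another 16 had the reverse (503 or 3.76%), and 73 had opposite effects (182 or 1.36%). The 372 were chosen by the difference, so their shares in these classes follow in part from that choice. Of the other 23, 15 had effects of at least 0.5 in size in both systems, such as LCN2 (3.83 in IPNs and 1.17 in collagen gels) and SLAMF9 (-4.45 and -1.53), and 8 were under 0.5 in both.

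The most negative differences were those of IGFL1, SPINK6 and S100A7. SPINK6 (chr5:147582357-147594700, plus strand), a kallikrein inhibitor of skin, had 14 and 24 normalized counts in the soft and 158 and 597 in the stiff IPN, 51 and 36 in the soft col:rBM and 3 and 10 in the stiff col gel. The stiff IPN libraries were the highest and the stiff col libraries the lowest, with no overlap between gels. It rose in stiff IPNs by 3.99 (SE 0.54), had a collagen effect of -2.73 (SE 0.54, adjusted p = 0.460) and a difference of -6.72 (SE 0.76, adjusted p = 0.0688). It was called for the difference in 8 of the 17 alternatives in which it was tested.

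S100A7, the calcium-binding protein psoriasin, was nearly restricted to stiff IPNs by level. It had 9 and 12 normalized counts in the soft and 395 and 586 in the stiff IPN, 5 and 2 in the soft col:rBM and 0 and 11 in the stiff col gel. It rose in stiff IPNs by 5.40 (SE 0.91), and the difference was -5.69 (SE 1.29, adjusted p = 0.231). The soft col:rBM replicate 2 and stiff col replicate 1 libraries were under the level of 3 reads, so its collagen effect of -0.29 (SE 0.91) rests on values of 0 to 11.

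IGFL1, an IGF-like family member, had 0 and 0 in the soft and 30 and 322 in the stiff IPN and at most 2 in each collagen gel library. It was at least 57.3-fold higher in stiff than in soft IPNs against a floor of 3 reads per library, and no collagen fold is given because both gels were under that floor. CEACAM6, a cell adhesion molecule of the carcinoembryonic antigen family, had 8 and 5, then 98 and 83 in the IPNs and at most 2 in the collagen gels. CCDC64B (2 and 1, then 25 and 87 in IPNs) and SYCP2 (0 and 2, then 17 and 24) were low throughout the collagen gels, with at most 1 and 10 normalized counts. IGFL1, CEACAM6, CCDC64B and SYCP2 passed the filter on low values through the stiff IPN libraries, with fewer than 2 of the other libraries at 10. The gel in which they were high thus also brought them into the comparison.

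Of the 10 most negative genes, 9 were called higher in stiff IPNs, against 1.69% of all genes tested. A high IPN effect itself lowers the difference, so this count follows in part from the rank. The exception was FABP4, a fatty acid carrier best known from adipocytes, whose IPN effect of 0.80 (SE 0.83, adjusted p = 0.588) was not called. FABP4 had 9 and 14 in the soft and 18 and 23 in the stiff IPN, 27 and 117 in the soft col:rBM and 0 and 16 in the stiff col gel. Its difference of -4.60 (SE 1.18) came mostly from a collagen effect of -3.80 (SE 0.83, adjusted p = 0.642). LEP, a defining adipocyte gene, was at or under 3 reads in all libraries and none of the 5 adipocyte markers was above that level in all of them, and their part in the FABP4 values was not tested.

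At the other end, 7 of the 10 genes with the most positive difference were called lower in stiff IPNs, against 2.13% of all genes tested. A low IPN effect itself raises the difference, so this count also follows in part from the rank. RNF150 (IPN effect -2.70) and APCDD1L (-1.91) were lower in the stiff IPN in both replicates without being called. SFTPB (surfactant protein B, a lipid-associated protein of lung lining fluid) had 1288 and 550 normalized counts in the soft and 660 and 168 in the stiff IPN, 596 and 173 in the soft col:rBM and 2389 and 469 in the stiff col gel. In each replicate it was lower in the stiff than in the soft IPN and higher in the stiff than in the soft collagen gel. It fell in stiff IPNs, with an effect of -1.33 (SE 0.24), and its collagen effect was 1.72 (SE 0.24, adjusted p = 0.152). The difference was 3.05 (SE 0.34, adjusted p = 0.0688).

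ITPKA, an inositol trisphosphate kinase that also bundles actin, had 1467 and 196 in the soft and 271 and 21 in the stiff IPN, 1575 and 81 in the soft col:rBM and 2060 and 90 in the stiff col gel. It fell in stiff IPNs, with an effect of -2.80 (SE 0.35), and had a collagen effect of 0.27 (SE 0.35). TEK, the angiopoietin receptor TIE2, had 156 and 181, then 41 and 3 in the IPNs, and 181 and 119, then 235 and 113 in the collagen gels. Beside TEK, the 6 endothelial markers summed to 73 to 263 in soft IPNs and 39 to 74 in stiff IPNs, most of it KDR, and their part in the TEK values was not tested.

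HSD11B1, which regenerates active glucocorticoid, was the gene among these 10 whose effect lay in the collagen gels. It had 32 and 19, then 31 and 28 normalized counts in the IPNs, and 14 and 4, then 162 and 36 in the collagen gels. Its collagen effect was 3.16 (SE 0.50, adjusted p = 0.255) and its IPN effect 0.25 (SE 0.50). LOX, SLAMF9, TMEM176B, RNF150, AOC1 and APCDD1L completed the 10, with differences from 2.65 to 3.46.

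**Figure D3:**
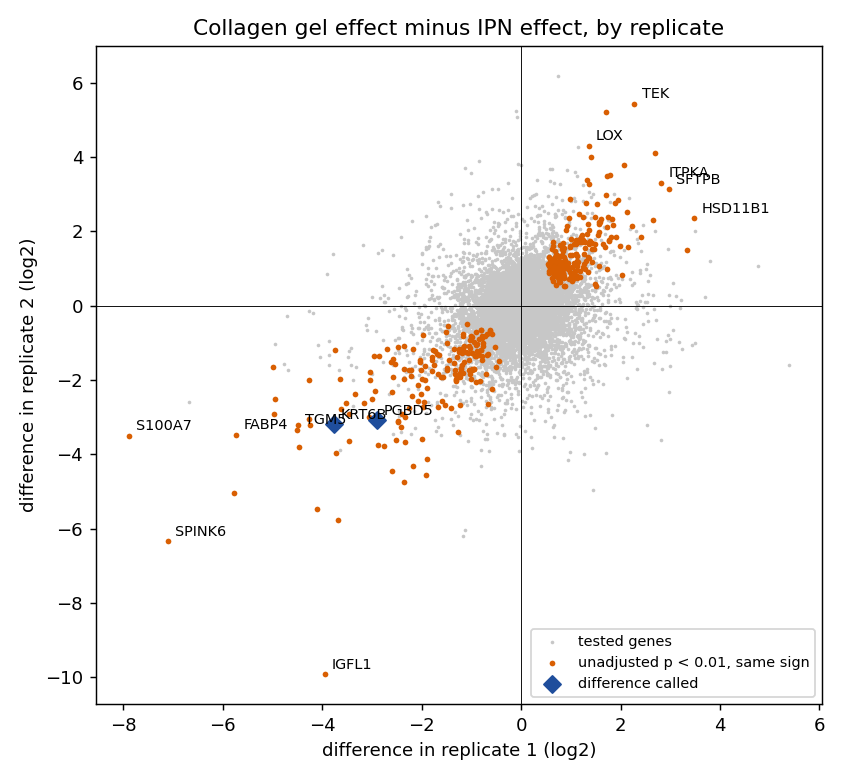
Difference between the stiffness effects (collagen effect minus IPN effect, log2) in replicate 1 (x axis) and replicate 2 (y axis) for the 13369 tested genes. Orange points are the 372 genes with an unadjusted p under 0.01 and the same sign in both replicates, and blue diamonds are KRT6B and PGBD5. IGFL1, TEK and LOX differ far more in replicate 2 and S100A7 in replicate 1, while SFTPB and SPINK6 are nearly the same in both.

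Opposite effects, with each effect at least 0.5 in size and of one sign in both replicates, were found for 182 genes (1.36%). Of these, 121 (0.905%) were higher in the stiff IPN and lower in the stiff col gel, and 61 (0.456%) were the reverse. For the IPN effect 18 of the 121 were called higher and 4 of the 61 lower, against 1.69% and 2.13% of all genes tested. None was called in collagen gels, so the counts of 121 and 61 describe size and sign. How far the count of 182 rests on single libraries was not tested, since the rule of 1 sign in both replicates cannot be applied to a gel system that lacks a library. TGM5, a transglutaminase of the cornified envelope, was one of the 121, with 21 and 18, then 96 and 102 in the IPNs and 71 and 42, then 13 and 22 in the collagen gels. OVOL1, a zinc finger regulator of epithelial differentiation, had 7 and 18, then 36 and 95 in the IPNs and 36 and 30, then 12 and 9 in the collagen gels. Whether reads of its antisense neighbour entered that count is not known, since the strand setting is not given in the sources used here. SERPINA5, the protein C inhibitor, was one of the 61, with 311 and 94, then 92 and 28 in the IPNs and 145 and 55, then 273 and 83 in the collagen gels. SERPINA5 fell in stiff IPNs, with an effect of -1.73 (SE 0.23), and its collagen effect was 0.75 (SE 0.23).

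Cornified envelope genes had the lowest median difference of the 24 gene lists. Of 30 tested members of 56, 27 had a negative difference and 18 of these an unadjusted p under 0.05, against 602 of all genes (4.5%), while 1 of 3 positive members passed that level. No member was called. The median difference was -1.92 (-2.34 in replicate 1 and -1.07 in replicate 2), with a median IPN effect of 1.71 and a median collagen effect of -0.19. The size of this median depends on the filter on low values, since 5 of the 30 members passed it through the stiff IPN libraries, with fewer than 2 of the other libraries at 10. It was -0.66 over the 18 members with at least 10 in all 8 libraries, where keratins were lower at -1.01, and -1 with no filter, where kallikreins and their inhibitors were lower at -1.02. In stiff IPNs 10 members were called higher and 1, PRDM1, lower, against 1.69% and 2.13% of all genes tested. SPRR2D, a small proline-rich protein, rose from 12 and 24 to 117 and 821 in IPNs, and had 5 and 7, then 0 and 7 in the collagen gels. A2ML1, a protease inhibitor of stratified epithelium, rose from 9 and 16 to 112 and 157, with 5 and 6, then 2 and 6 in the collagen gels. IVL (involucrin), named after its values were seen, rose from 42 and 126 to 190 and 401 in IPNs and had 103 and 245, then 36 and 196 in the collagen gels.

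SERPINB2, the plasminogen activator inhibitor PAI-2, is on the same list and rose in IPNs alone by size. It had 78 and 98 in the soft and 354 and 995 in the stiff IPN, 99 and 102 in the soft col:rBM and 77 and 84 in the stiff col gel, so the 2 stiff IPN libraries stood apart from 6 close values. Its IPN effect was 2.75 (SE 0.35) and its difference -3.07 (SE 0.50, adjusted p = 0.145).

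Promoters were read to describe what members of a list share in sequence, taking the 250 bases before the first start that RefSeq (GRCh38.p14) lists for a gene. A promoter was found for 9791 of the 13369 tested genes. The AP-1 motif TGANTCA, on either strand, was in 9 of the 21 cornified envelope promoters found (42.9%), against 4.23% of all tested genes, and SERPINB2 was one of the 9. The TEAD motif GGAATG was in 7 of the 21 (33.3%, against 9.43%), and the interferon and hypoxia response motifs were in 1 each. The 9 include SPRR1A, SPRR1B, SPRR2A and SPRR3, and the 7 include SPRR1A, SPRR1B and SPRR3. As members of 1 gene family, these are not independent promoters. The promoters of SERPINB2, of IFI27 for interferon-stimulated genes, of SFTPB for opposite effects, of LOX for hypoxia genes and of the called gene PGBD5 are printed 5′ to 3′, placed on hg19 (GRCh37) by exact match. Capitals mark matches, on either strand, to the AP-1 motif TGANTCA, the TEAD motif GGAATG, the interferon response motif, a pair of GAAA with 2 bases between them, and the hypoxia response motif ACGTG.
SERPINB2 (chr18:61554689-61554938, plus strand): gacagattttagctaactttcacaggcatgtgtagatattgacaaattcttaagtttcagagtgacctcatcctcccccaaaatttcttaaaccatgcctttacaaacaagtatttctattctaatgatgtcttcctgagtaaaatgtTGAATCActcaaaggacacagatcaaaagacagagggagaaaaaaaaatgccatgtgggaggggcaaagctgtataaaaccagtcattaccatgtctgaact
IFI27 (chr14:94576832-94577081, plus strand): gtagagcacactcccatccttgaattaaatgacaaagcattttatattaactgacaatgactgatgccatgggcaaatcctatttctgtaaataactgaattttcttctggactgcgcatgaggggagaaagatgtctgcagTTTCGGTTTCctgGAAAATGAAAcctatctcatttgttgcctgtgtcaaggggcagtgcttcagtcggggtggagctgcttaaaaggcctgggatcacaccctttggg
SFTPB (chr2:85895865-85896114, minus strand): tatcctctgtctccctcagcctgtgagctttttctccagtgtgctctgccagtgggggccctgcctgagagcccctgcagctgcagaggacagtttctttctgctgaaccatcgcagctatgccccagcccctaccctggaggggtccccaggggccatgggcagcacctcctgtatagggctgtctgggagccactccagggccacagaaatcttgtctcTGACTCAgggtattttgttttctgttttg
LOX (chr5:121413955-121414204, minus strand): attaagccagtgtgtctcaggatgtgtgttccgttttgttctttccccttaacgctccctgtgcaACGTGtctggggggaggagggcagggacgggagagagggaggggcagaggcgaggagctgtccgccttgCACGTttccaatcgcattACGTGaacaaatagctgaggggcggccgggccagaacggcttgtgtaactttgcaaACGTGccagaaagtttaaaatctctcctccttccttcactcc
PGBD5 (chr1:230562079-230562328, minus strand): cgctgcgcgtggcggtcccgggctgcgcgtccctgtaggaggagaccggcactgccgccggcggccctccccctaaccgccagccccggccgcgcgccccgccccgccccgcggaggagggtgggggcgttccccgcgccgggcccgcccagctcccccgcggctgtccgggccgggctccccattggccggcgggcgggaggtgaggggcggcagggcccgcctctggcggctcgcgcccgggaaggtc
SERPINB2 and SFTPB, whose IPN effects have opposite signs, each hold 1 AP-1 match. IFI27 holds 2 interferon response matches, LOX holds 4 hypoxia response matches, and PGBD5 holds none of the 4 motifs in this window. A match describes letters and not a bound site.

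Kallikreins and their inhibitors were next, with a negative difference in 10 of 12 tested members and a median of -1.36. Of these 10, 6 had an unadjusted p under 0.05, against 4.5% of all genes tested. These counts and the median depend on the filter on low values. Of the 12 members, 3 passed it through the stiff IPN libraries, with fewer than 2 of the other libraries at 10. Over the 5 members with at least 10 in all 8 libraries the median was -0.25. In stiff IPNs 4 members were called higher and none lower, against 1.69% and 2.13% of all genes tested. PI3, the elastase inhibitor elafin, rose from 165 and 387 to 2616 and 3577 in IPNs, an effect of 3.59 (SE 0.43), and had 36 and 182, then 46 and 244 in the collagen gels. SLPI, a related inhibitor, rose from 4538 and 7219 to 8072 and 11493 in IPNs and had 3518 and 4576, then 2765 and 4322 in the collagen gels.

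Among keratins, 15 of 17 tested members had a negative difference (6535 of all 13369 genes tested), with a median of -1.01. Of these 15, 7 had an unadjusted p under 0.05 (4.5% of all genes tested), and KRT6B was the 1 member called. Of the 17, 1 passed the filter on low values through the stiff IPN libraries. KRT17, a basal and stress keratin, rose from 5552 and 18767 to 19555 and 71907 in IPNs, by 1.88 (SE 0.18), with 2883 and 7944, then 3049 and 13097 in the collagen gels. Of the 13 S100 proteins tested 5 were called higher in stiff IPNs, against 1.69% of all genes tested, and the median difference of the list was -0.25. S100P rose from 237 and 297 to 796 and 1156 in IPNs and had 199 and 390, then 264 and 421 in the collagen gels. S100A3 rose from 113 and 255 to 397 and 891, with 99 and 426, then 91 and 373 in the collagen gels.

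Epithelial junction genes had a negative difference in 34 of 43 members, 15 of them at an unadjusted p under 0.05 (4.5% of all genes tested). The median difference was -0.63 (-0.65 and -0.76 in the replicates, and -0.40 without soft col:rBM replicate 1). The list's median effect was 0.45 in IPNs and -0.32 in collagen gels. In stiff IPNs 6 members were called higher, against 1.69% of all genes tested, and CEACAM6 was among them. It was 1 of 2 members that passed the filter on low values through the stiff IPN libraries. Over the 35 members with at least 10 in all 8 libraries the median difference was -0.43. CLDN1, a tight junction claudin, rose from 112 and 166 to 672 and 2761 in IPNs and had 43 and 55, then 48 and 96 in the collagen gels. OCLN (occludin) rose from 106 and 37 to 273 and 529, with 127 and 41, then 53 and 26 in the collagen gels. CDH1 (E-cadherin), named after its values were seen, rose from 2312 and 2724 to 3972 and 5620 and had 2339 and 2200, then 1283 and 1823 in the collagen gels, so that it was highest in both stiff IPN libraries and lowest in both stiff col libraries.

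Interferon-stimulated genes had a negative difference in 35 of 43 members, 12 of them at an unadjusted p under 0.05 (4.5% of all genes tested), with a median of -0.66. The list rested more on replicate 2, with medians of -0.20 in replicate 1 and -1.12 in replicate 2, and the median was -0.30 without stiff IPN replicate 2 and -1.08 when the other stiff IPN library was left out. In stiff IPNs 11 members were called higher, against 1.69% of all genes tested. IFI27, a mitochondrial interferon-induced protein, rose from 15 and 25 to 123 and 671 in IPNs and had 19 and 16, then 11 and 7 in the collagen gels. OAS1, a sensor of double-stranded RNA, rose from 119 and 131 to 217 and 370, with 84 and 135, then 51 and 100 in the collagen gels. SAMD9 rose from 465 and 413 to 1212 and 1145 and had 502 and 612, then 404 and 685 in the collagen gels. The interferon response motif was in 20 of 33 promoters found (60.6%) against 2.39% of all tested genes.

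In the opposite direction stood ribosomal proteins, matrix proteins, mesenchymal genes and hypoxia genes. Of 76 cytosolic ribosomal protein genes tested, 75 had a positive difference and 64 of these an unadjusted p under 0.05, against 719 of all genes (5.38%). The median difference was 0.68, with 0.68 in replicate 1 and 0.67 in replicate 2. It came from the IPNs, where 33 members were called lower (2.13% of all genes tested) and the median effect was -0.69, while the collagen median was -0.04. RPS2 fell from 83944 and 78585 to 46179 and 34237 in IPNs and had 73752 and 51340, then 71890 and 48645 in the collagen gels. RPS3 fell from 62532 and 63423 to 38668 and 28211, with 54315 and 42549, then 52860 and 39951 in the collagen gels. These genes are among the most abundant, and the share of the 100 most abundant genes was 32.7% and 32.2% in soft IPNs against 26.7% and 24.5% in stiff IPNs, whose part in the result was not tested. Scaling all libraries to the same total moved the median difference of all genes from 0.01 to -0.21 and that of the ribosomal list to 0.46. Each of the 24 lists moved by -0.23 to -0.22, and 7 whose medians lay near 0 changed sign: the YAP target, chemokine, cell cycle, Notch, TGF-beta, EGF receptor and immediate early lists.

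Matrix proteins and their crosslinkers had a positive difference in 51 of 64 members, 28 of them at an unadjusted p under 0.05 (5.38% of all genes tested). The median difference was 0.58 (0.50 and 0.73 in the replicates, and 0.35 without soft IPN replicate 2). In stiff IPNs 13 members were called lower and 3 higher, against 2.13% and 1.69% of all genes tested. Of the 64, 1 passed the filter on low values through the stiff IPN libraries. TGFBI, a collagen-binding matrix protein, fell from 59566 and 59917 to 18760 and 15302 in IPNs, an effect of -1.82 (SE 0.16), and had 62653 and 52236, then 45896 and 43472 in the collagen gels. LOX, the collagen crosslinking lysyl oxidase, fell from 3207 and 4950 to 946 and 170 and had 6587 and 3325, then 4987 and 2277 in the collagen gels. FBLN5, an elastic fibre protein, fell from 86 and 77 to 36 and 21, with 106 and 45, then 152 and 67 in the collagen gels.

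SPARC, a collagen-binding matricellular protein, had opposite effects. It had 471 and 348, then 321 and 119 in the IPNs and 595 and 222, then 1510 and 517 in the collagen gels, a difference of 2.32 (SE 0.38, adjusted p = 0.145). All 7 members with opposite effects were lower in stiff IPNs and higher in stiff col gels. FN1 (fibronectin), named after its values were seen, was another of the 7, with 11610 and 9691, then 7577 and 3936 in the IPNs and 28969 and 11569, then 57569 and 23828 in the collagen gels. The 3 members called higher in stiff IPNs were TNC, POSTN and THBS1, also named after their values were seen. POSTN (periostin) had 12 and 5, then 47 and 28 in the IPNs and 139 and 55, then 100 and 82 in the collagen gels, a difference of -2.03 (SE 0.49).

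Mesenchymal genes and regulators of the epithelial-mesenchymal transition had a positive difference in 23 of 28 members, 11 at an unadjusted p under 0.05 (5.38% of all genes tested). The median difference was 0.62 (0.58 and 0.52 in the replicates). The 3 called lower in stiff IPNs, against 2.13% of all genes tested, included VIM and INHBA. VIM (vimentin) fell from 61638 and 30868 to 22798 and 9804 in IPNs and had 58049 and 18444, then 46195 and 18460 in the collagen gels. INHBA, a subunit of activin A, fell from 1143 and 420 to 407 and 80, with 1168 and 259, then 1229 and 228 in the collagen gels. In the integrin list 15 of 21 had a positive difference, 3 of them at an unadjusted p under 0.05 (5.38% of all genes tested). The list's median difference was 0.25 (0.41 over the 17 with at least 10 in all 8 libraries). ITGA5, the fibronectin receptor subunit, fell from 41410 and 22332 to 21889 and 4560 in IPNs and had 59791 and 15080, then 60270 and 13618 in the collagen gels.

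Hypoxia and glycolysis genes had a positive difference in 33 of 33 members, but this rested on replicate 2. The median difference was 0.66 over both, -0.06 in replicate 1 and 1.39 in replicate 2, and it was 0.12 without stiff IPN replicate 2 and 0.20 without soft IPN replicate 2, but 1.21 and 1.07 when the stiff or soft IPN library of replicate 1 was left out. At an unadjusted p under 0.05 there were 9 members (5.38% of all genes tested, positive), and 7 were called lower in stiff IPNs (2.13% of all genes tested). P4HA1, a collagen prolyl hydroxylase, differed alike in both replicates. It fell from 6447 and 2540 to 2404 and 944 in IPNs, an effect of -1.42 (SE 0.13), and had 5228 and 1809, then 4660 and 1759 in the collagen gels. The hypoxia response motif was in 12 of 28 promoters found (42.9%) against 23.3% of all tested genes.

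**Figure D4:**
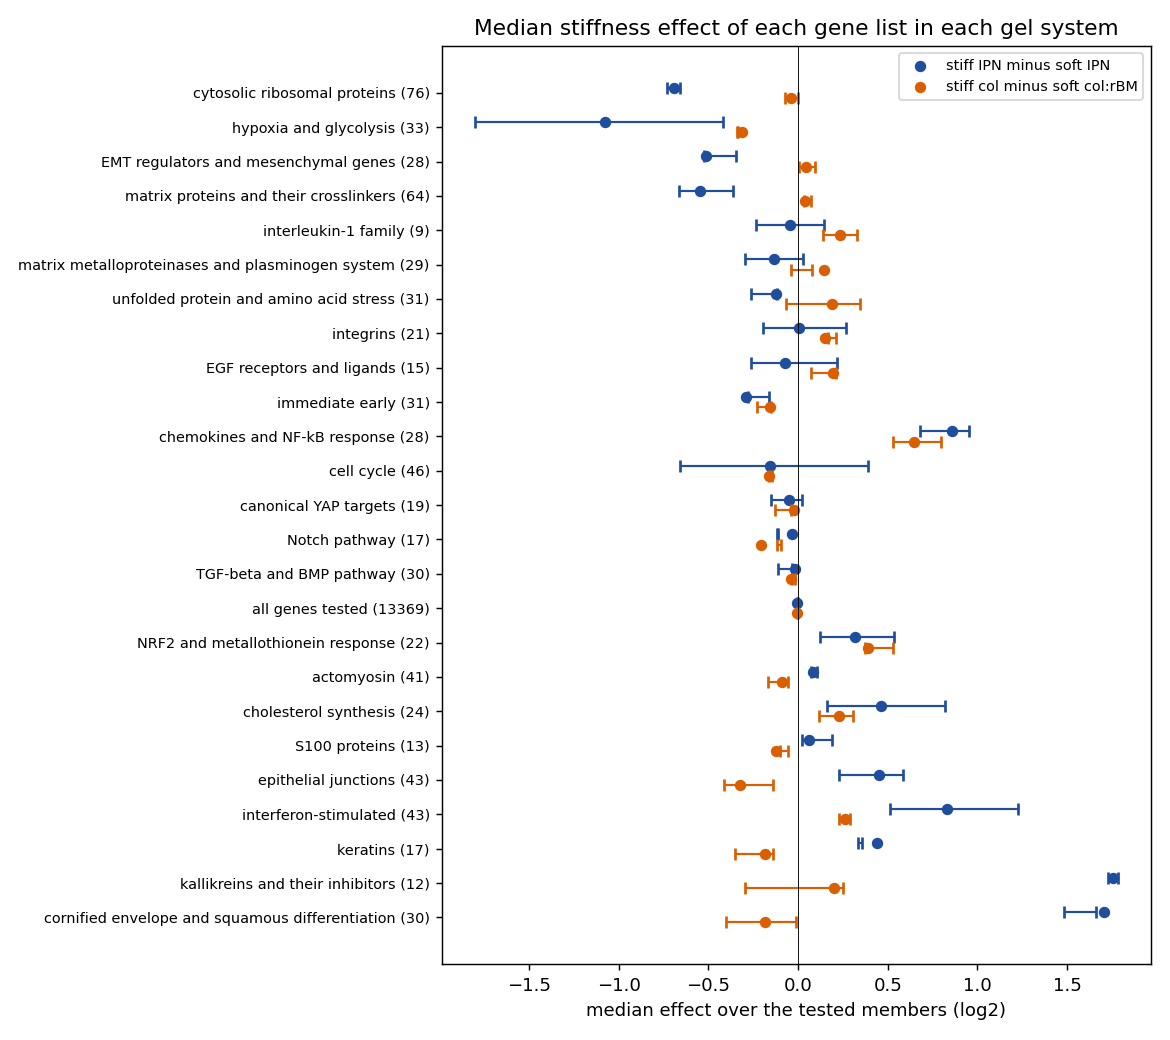
Median stiffness effect (log2) over the tested members of each gene list, with the number of members in parentheses, in IPNs (blue) and in collagen gels (orange). Points are medians of the fitted effects, ticks are the medians in replicates 1 and 2, and lists are ordered by their median difference. Cornified envelope genes lie at 1.71 in IPNs and -0.19 in collagen gels, ribosomal proteins at -0.69 and -0.04, and chemokines at 0.86 and 0.65.

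The other lists had median differences between -0.20 and 0.39, against 0.01 for all genes. Chemokines and NF-kB response genes had medians of 0.86 in IPNs and 0.65 in collagen gels and a median difference of 0.08 (-0.06 with no filter). Of the 28, 10 were called higher in stiff IPNs, against 1.69% of all genes tested, and 1 of the 28 passed the filter through the stiff IPN libraries. Within this list LCN2 (lipocalin 2, an iron-binding protein) rose from 26 and 20 to 258 and 441 in IPNs and had 9 and 8, then 18 and 23 in the collagen gels. ICAM1 had 661 and 796, then 477 and 343 in the IPNs and 515 and 439, then 735 and 487 in the collagen gels, a difference of 1.17 (SE 0.30). Cell cycle genes had a median difference of 0.07, made of -0.50 in replicate 1 and 0.51 in replicate 2. Cholesterol synthesis genes had 20 of 24 members with a negative difference, 3 of them at an unadjusted p under 0.05 (4.5% of all genes tested). The medians were 0.08 and -0.58 in the replicates, and the list's median of -0.20 was 0.16 without stiff IPN replicate 2. The median difference was between -0.17 and 0.39 in the Notch, TGF-beta and BMP, EGF receptor, NRF2, immediate early, unfolded protein, interleukin-1, matrix metalloproteinase and actomyosin lists.

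The canonical YAP target genes, which the coactivators YAP and TAZ switch on with TEAD factors, had 11 positive and 8 negative differences among 19 members and a median of 0.07. CTGF had 71 and 34, then 91 and 364 in the IPNs and 47 and 31, then 72 and 102 in the collagen gels. Its difference of -0.72 (SE 0.89, adjusted p = 0.827) had opposite signs in the replicates, 0.25 and -1.70. CYR61 had 282 and 231, then 260 and 666 in the IPNs and 371 and 297, then 287 and 379 in the collagen gels, a difference of -0.71 (SE 0.53, adjusted p = 0.707). ITGB2 had a difference of 0.80 (SE 0.39, adjusted p = 0.555). ANKRD1 was not tested, since it was above 3 reads in 1 library alone, stiff IPN replicate 2, at 12 normalized counts.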

How the data were processed

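RNA-seq was measured in 8 libraries, 2 for each of 4 gels. The deposited values are a signal per gene, which the authors made by counting reads with HTSeq, dividing the counts by 1 factor per library and rounding, and the text calls them normalized counts. These factors, and so the reads on genes, were worked out from steps in the values. The study's methods name Bowtie2 and the labels TopHat2 2.0.13, and both give hg19, with Trim Galore 0.3.3 for trimming. Multimapped reads had been removed. The annotation and the strand setting of the counting are not given in the sources used here. Of the 25369 rows, 28 were named by a date, 20 of which were tested but not named.

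The values were transformed to log2(normalized count + 1) for genes with at least 10 in at least 2 libraries. Under R 4.3.3, limma 3.58.1 (with statmod 1.5.0) fitted a mean for each gel, the replicate number as a block, and a trended and robust variance. Benjamini-Hochberg adjustment was over the 13369 genes tested, at a threshold of 0.05, and the fit was tested on simulated data. The block was used because the difference was taken within each replicate and the study describes 2 independent trials. Across genes, the change from replicate 1 to 2 correlated in all 6 pairs of gels (r from 0.28 to 0.82). The study describes the replicates as biological and independent, while the labels give their numbers only. A count test planned for raw counts was not used, as the values had been scaled.

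Genes were named by rank: the 10 largest differences in each direction, the 5 largest with opposite effects in each direction, up to 3 members of each list, S100A7, and the YAP targets CTGF, CYR61, ANKRD1 and ITGB2. The members and lists were chosen with earlier results of these data known. Positions are from GENCODE 44 lifted to hg19. A fold against a gel at or under 3 reads (2.41 to 3.73 normalized counts) is a lower bound that covers counting error only. Alternatives were the fit without the block, 3 rescalings, other filters and pseudocounts, plain moderation, the per-replicate differences alone, and leaving out each library. Python 3.11.15, pandas 2.3.3 and matplotlib 3.10.9 made the summaries and plots.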

Additional observations from a re-analysis of the deposited data

Results flagged for a closer look

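The stiffness effect of KRT6B differed between the gel systems by the test of the difference itself, at -3.48 (SE 0.27, limma, adjusted p = 0.0106), with the same sign in both replicates. PGBD5 was picked out in the same way, at -2.99 (SE 0.24, adjusted p = 0.0106), again with the same sign in both replicates. Without the replicate block neither passed, and the count at an unadjusted p under 0.05 fell from 1321 to 278 of 13369 genes.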

How the results depend on the processing

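The number of genes called for the difference, 2 as reported, was 0 without the replicate block and 0 with plain moderation, 5 with all libraries scaled to the same total, 6 with no filter on low values and 475 with the per-replicate differences alone, and between 0 and 675 when 1 library was left out. KRT6B and PGBD5 were among the genes called in 14 of 18 alternatives each. The count of genes with opposite effects, 182, was 301 with no filter, 94 with at least 10 in all 8 libraries, 113 with a pseudocount of 5, and between 216 and 353 when 1 library was left out. The count called for the IPN effect, 511, was 0 without the replicate block, 830 with equal totals, 35 with plain moderation and between 0 and 2688 when 1 library was left out. In collagen gels the count of 0 became 4 with no filter and was between 0 and 30 when 1 library was left out. The difference of CTGF changed sign when 1 IPN library of replicate 2 was left out, to 0.11 without the soft and 0.46 without the stiff one, in a range from -1.90 to 0.46. The cause of these changes was not tested. With 2 libraries per gel, leaving out 1 leaves a lone library that is assumed to vary like the others.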
